A study of Homo sapiens with 6 samples.

Results

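The interferon signalling factors and RNA sensors described here are 9 genes: the receptor chain IFNAR1, the signalling factors STAT2 and IRF9, the sensors DDX58, IFIH1 and DHX58, and the transcription factors IRF3, IRF7 and IRF1. They were taken by symbol from a table of 59962 genes, all 9 were found, and all 9 were among the 16610 genes that reached 1 TPM in at least 2 libraries and were tested. The data were RNA-seq of total RNA from CFPAC-1, an established human pancreatic ductal adenocarcinoma line, with 2 libraries in each of 3 groups: SULF2 knockdown with sgRNA1, SULF2 knockdown with sgRNA3, and the control, labelled as LACZ knockdown after a bacterial gene that human cells lack. SULF2 encodes an extracellular sulfatase that edits heparan sulfate. The sources used here do not say whether the lines are single clones, which enzyme the guides directed, or whether the 2 libraries of a group are separate cultures, so each p-value reflects only library-to-library spread, which may be technical. In these bulk samples, fewer cells expressing a gene and less RNA per cell cannot be told apart.

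Interferons are secreted alarm proteins that cells release when sensors in the cytoplasm find viral RNA. The helicases RIG-I (gene DDX58) and MDA5 (IFIH1) bind double-stranded RNA and signal through the adaptor MAVS, while the related LGP2 (DHX58) tunes them, and the kinases that follow activate the transcription factors IRF3 and IRF7, which switch on interferon genes. Secreted type I interferon binds a receptor that includes IFNAR1, and STAT2 and IRF9 then act within the complex ISGF3, which induces a large set of antiviral genes, several of the sensors among them. IRF1 is a separate member of the IRF family, induced by interferon gamma and by NF-kB.

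Values are TPM, the share of a library's transcripts after correction for gene length, and their depth is unknown. SULF2 was at 8.98 and 12.81 TPM in the sgRNA1 libraries, 10.07 and 9.24 TPM in the sgRNA3 libraries, and 25.69 and 22.52 TPM in the LACZ libraries, so 45.2% and 40.1% of the LACZ mean remained (limma adjusted p = 0.0338 and 0.0215). Leaving out 1 library ended the sgRNA1 call for SULF2 except without sgRNA1 replicate 2 (0.0496 to 0.159), and ended the sgRNA3 call without any sgRNA3 or LACZ library (at most 0.106). Both calls for SULF2 were also lost with no low-value filter (0.0768 and 0.0528) and with no variance trend (0.0675 and 0.0511), and that with sgRNA1 under quantile normalization (0.0530) and when the fit held sgRNA1 and LACZ alone (0.0825). Of 9 ductal epithelial markers, 8 reached 1 TPM, all but CFTR, with a summed level of 8208 and 8026 TPM in the sgRNA1 libraries, 8684 and 8638 TPM with sgRNA3, and 9234 and 9061 TPM in LACZ. Of 8 leukocyte markers 3 reached 1 TPM (CD14, LYZ and ITGAM) while FCGR3A was listed at 0, with sums of 10.27 and 12.41 TPM with sgRNA1, 7.49 and 6.92 TPM with sgRNA3, and 8.52 and 16.75 TPM in LACZ. Fibroblast markers (3 of 7 at 1 TPM) summed to 60.56 and 58.63 TPM with sgRNA1, 41.75 and 37.72 TPM with sgRNA3, and 77.94 and 77.54 TPM in LACZ, so they differed between the groups, and their part in the results was not tested. Endothelial markers (2 of 4 at 1 TPM) stayed between 4.33 and 5.25 TPM and acinar markers (1 of 4) between 0.61 and 1.48 TPM.

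The promoters of the genes below differ in the letters that interferon factors read. They are shown for IRF1, which was lower with each guide than in LACZ, for IFIH1, which was higher with sgRNA3, and for DDX58 and IRF9, which passed in no comparison. Each window, from RefSeq on GRCh38.p14, holds 250 bases before and 50 after the start of the gene, written 5′ to 3′ on the gene's own strand, and capitals mark matches on either strand to the IRF core AANNGAAA, to the longer interferon-stimulated response element (2 copies of GAAA with 2 bases between them), which can overlap the core, or to the STAT site TTCNNNGAA.
IRF1 promoter (chr5:132490724-132491023, minus strand): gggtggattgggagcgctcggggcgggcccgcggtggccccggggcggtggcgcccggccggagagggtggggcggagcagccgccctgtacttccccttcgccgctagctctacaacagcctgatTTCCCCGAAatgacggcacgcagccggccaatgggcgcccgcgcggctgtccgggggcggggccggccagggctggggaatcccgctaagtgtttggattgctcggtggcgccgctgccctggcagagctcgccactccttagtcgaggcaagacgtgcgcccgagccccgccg
IFIH1 promoter (chr2:162318635-162318934, minus strand): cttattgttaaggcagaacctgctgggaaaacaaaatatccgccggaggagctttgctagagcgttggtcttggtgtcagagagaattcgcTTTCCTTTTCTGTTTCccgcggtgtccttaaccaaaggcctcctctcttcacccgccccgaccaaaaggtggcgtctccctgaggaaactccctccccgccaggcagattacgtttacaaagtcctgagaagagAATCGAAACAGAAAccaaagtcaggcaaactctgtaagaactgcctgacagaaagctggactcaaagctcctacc
DDX58 promoter (chr9:32526147-32526446, minus strand, listed as RIGI): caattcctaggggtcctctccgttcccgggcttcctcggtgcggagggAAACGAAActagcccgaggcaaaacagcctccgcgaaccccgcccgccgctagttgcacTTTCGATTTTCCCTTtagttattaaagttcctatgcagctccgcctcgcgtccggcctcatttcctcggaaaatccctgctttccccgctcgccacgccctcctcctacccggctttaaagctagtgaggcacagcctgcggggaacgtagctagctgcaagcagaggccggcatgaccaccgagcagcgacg
IRF9 promoter (chr14:24161015-24161314, plus strand): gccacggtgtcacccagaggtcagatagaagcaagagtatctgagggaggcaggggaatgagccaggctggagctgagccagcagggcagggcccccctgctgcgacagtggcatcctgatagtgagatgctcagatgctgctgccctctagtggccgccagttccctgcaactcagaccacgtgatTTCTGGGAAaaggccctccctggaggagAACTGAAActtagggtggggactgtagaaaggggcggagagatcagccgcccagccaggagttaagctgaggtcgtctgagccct

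The IRF1 window held 1 STAT site, at position 127 counted from 1 at the 5′ end, and no match to either IRF motif. The IFIH1 window held 4 IRF cores and 3 of the longer elements, at positions 92, 98 and 230, and no STAT site. The DDX58 window held 3 IRF cores and no longer element, and the IRF9 window held 1 core, at position 216, and 1 STAT site, at position 188. The windows of STAT2 and IFNAR1 (which has 2 windows) held no match to these letters. Of 35116 windows of this length, 22.8% held the core, 3.57% the longer element and 7.66% the STAT site. IRF3, IRF7 and DHX58 had no entry in the table, so 6 of the 9 genes were matched. A match is a description of letters, and binding was not measured.

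Among the 9 genes, IRF9 was the most abundant in each group and IFIH1 the least. In LACZ the means ran from IRF9 at 177 TPM through IRF1 at 124, IRF3 at 92.5, IRF7 at 46.7, IFNAR1 at 37.7, STAT2 at 32.3, DDX58 at 25.8 and DHX58 at 19.2 to IFIH1 at 14.2 TPM, and no neighbours in that order overlapped between their libraries. These levels lay between the 51.3 percentile (IFIH1) and the 95.3 percentile (IRF9) of all tested genes. With sgRNA1 IRF3 stood above IRF1, and IRF7 and IFNAR1 overlapped. With sgRNA3 IRF3 and IRF1 overlapped, and so did DHX58 and IFIH1. The deposited Pfam annotation gives the 3 sensors the same helicase and RIG-I C-terminal domains, but lists the caspase recruitment domain, through which sensors signal to MAVS, for DDX58 and IFIH1 and not for DHX58.

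**Figure D1:**
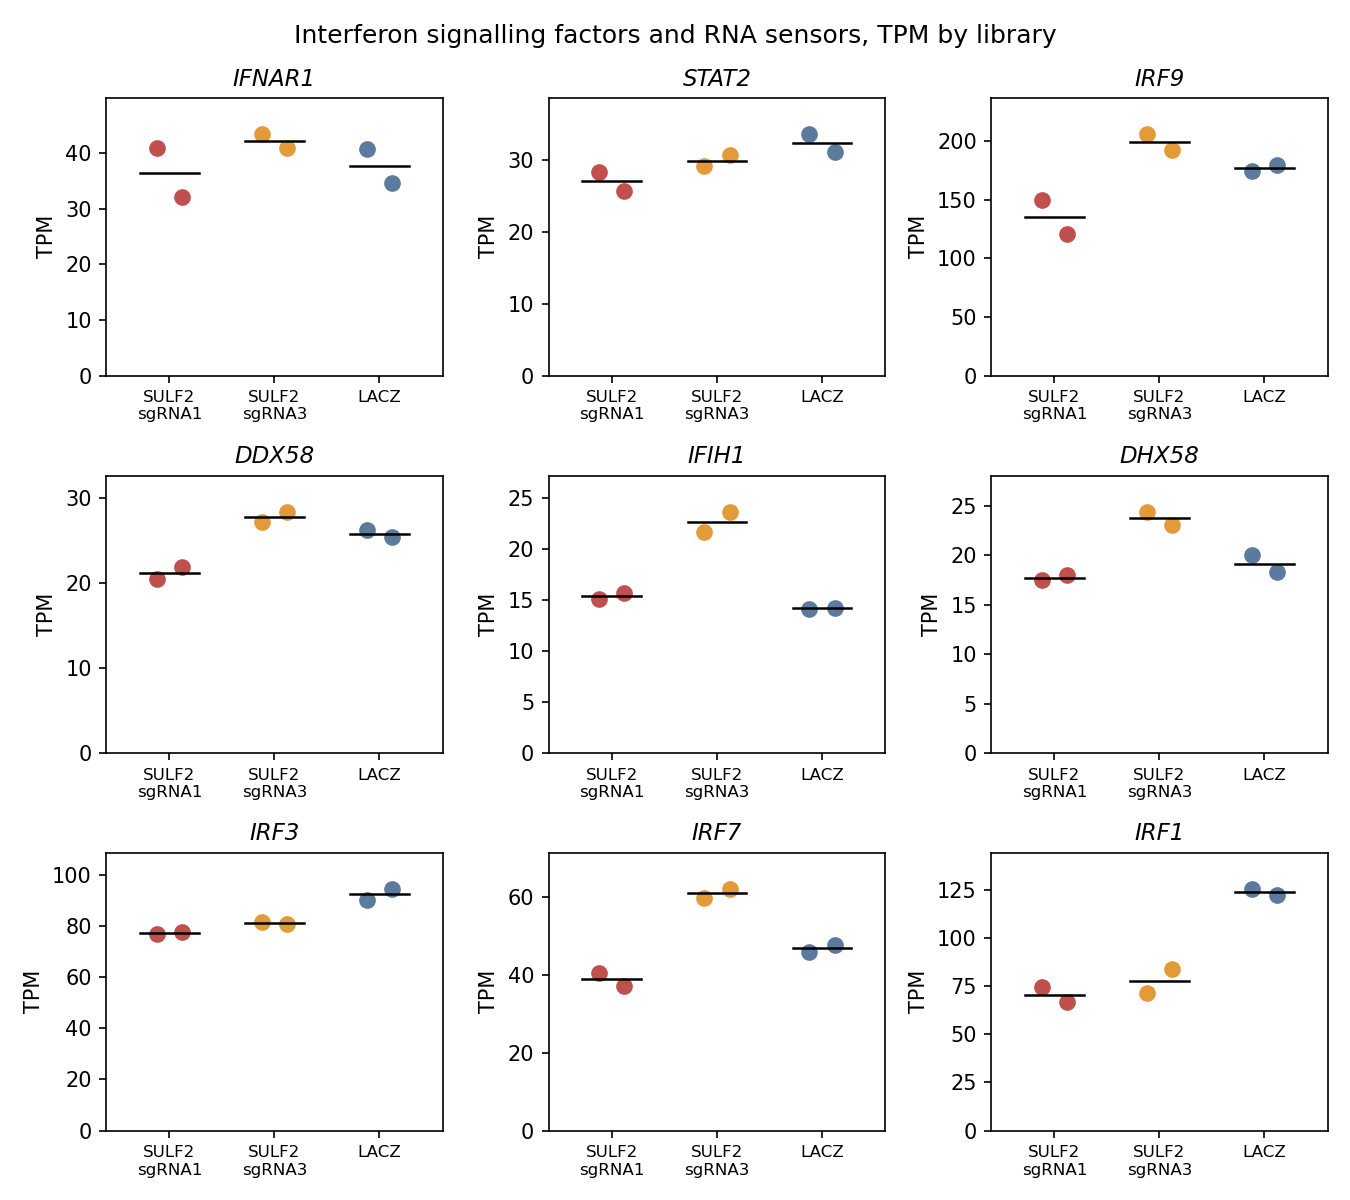
TPM of each of the 9 genes (vertical axis, from 0) in the 2 libraries of SULF2 sgRNA1, SULF2 sgRNA3 and LACZ (points), with the group mean as a bar. IRF1 was lower in all 4 SULF2 libraries (66.61 to 83.78 TPM) than in both LACZ libraries (122.34 and 125.2 TPM), while IFIH1 and IRF7 were highest with sgRNA3.

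Changes were tested with limma on log2(TPM + 1), with p-values adjusted over all 16610 genes by the method of Benjamini and Hochberg and a threshold of 0.05. With sgRNA1 against LACZ, 2 of the 9 genes fell (IRF1 and IRF3) and 0 rose, where 4.31% of all tested genes fell and 1.69% rose. At an unadjusted p under 0.05 the number was 6 of 9, where 24.6% of all tested genes were under it. It was 4 of 9 under median-of-ratios scaling and 5 of 9 under quantile normalization, beside 4269 and 4101 of all 16610 genes. The same count was 5 of 9 with sgRNA3 and 5 of 9 between the guides, where 28% and 15.4% of all tested genes were. With sgRNA3 against LACZ, 1 fell (IRF1) and 2 rose (IFIH1 and IRF7), where 5.25% of all genes fell and 3.84% rose. Between the guides, sgRNA3 against sgRNA1, 1 of 9 was higher (IRF7) and 0 lower, where 0.391% of all genes were higher and 0.187% lower. The median log2 change of the 9 genes was -0.26 with sgRNA1, 0.16 with sgRNA3 and 0.38 between the guides, beside -0.07, -0.05 and 0.04 over all tested genes. The first 2 comparisons share the LACZ libraries. Of all genes called, 28.2% were higher with sgRNA1 and 42.2% with sgRNA3, but median-of-ratios scaling gave 51.3% and 55.9%, and quantile normalization gave 44.1% and 49.0%. Between the guides this share was 67.7%, and 55.3% and 55.6% under those scalings.

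IRF1 (ENSG00000125347, chromosome 5, 132481609 to 132490798 on GRCh38), the transcription factor that carries much of the interferon gamma response, was the 1 member that passed with each guide, and was lower with both. The libraries of IRF3 and STAT2 also lay below LACZ with each guide, but IRF3 passed with sgRNA1 alone and STAT2 with neither. IRF1 was at 74.41 and 66.61 TPM in the sgRNA1 libraries, 71.22 and 83.78 TPM in the sgRNA3 libraries, and 125.2 and 122.34 TPM in the LACZ libraries. The libraries of each guide lay below both LACZ libraries, and the guides overlapped each other. Its mean with sgRNA1 was 57.0% of LACZ (log2 change -0.81, SE 0.10, limma adjusted p = 0.0164), and with sgRNA3 62.6% of LACZ (log2 change -0.67, SE 0.10, limma adjusted p = 0.0209). The difference between the guides did not pass (0.13, 95% interval -0.11 to 0.38, limma adjusted p = 0.573). Against LACZ the sgRNA1 call did not survive leaving out sgRNA1 replicate 1 or 2 or LACZ replicate 1 or 2 (limma adjusted p = 0.0558, 0.0852, 0.0974 and 0.0903) or dropping the variance trend (0.0550). With sgRNA3 it was lost without sgRNA3 replicate 1 or LACZ replicate 1 or 2 (limma adjusted p = 0.0707, 0.101 and 0.0986) and without the variance trend (0.0598). In GENCODE 29 the exons of IRF1 share 1716 bases with C5orf56 and 469 with AC116366.3, both on the opposite strand. C5orf56 was between 5.41 and 8.13 TPM. AC116366.3 was at 25.82 and 7.57 TPM with sgRNA1, 10.43 and 4.73 TPM with sgRNA3, and 3.13 and 4.93 TPM in LACZ, and with strandedness unstated in the sources used here, reads of the shared bases cannot be told apart.

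IRF3 (ENSG00000126456, chromosome 19, 49659569 to 49665875), the constitutive factor that starts interferon production, changed less. It was at 76.84 and 77.66 TPM with sgRNA1, 81.81 and 80.79 TPM with sgRNA3, and 90.44 and 94.59 TPM in LACZ. No library of either guide reached the LACZ libraries, and sgRNA3 lay above sgRNA1. With sgRNA1 it fell to 83.5% of LACZ (log2 change -0.26, SE 0.05, limma adjusted p = 0.0463). It no longer passed with any 1 of the 6 libraries left out (limma adjusted p = 0.0974 to 0.179), under median-of-ratios scaling (0.117), quantile normalization (0.0836), no low-value filter (0.0577), no variance trend (0.133) or a fit of only the groups compared (0.101). With sgRNA3 the log2 change was -0.18 (95% interval -0.31 to -0.06, limma adjusted p = 0.0779). The exons of IRF3 share 734 bases with BCL2L12 on the opposite strand, which was between 56.31 and 59.57 TPM in the 6 libraries.

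IRF7 (ENSG00000185507, chromosome 11, 612553 to 615999), the interferon-inducible factor that amplifies interferon production, was the 1 member that passed between the guides. It was at 40.42 and 37.08 TPM with sgRNA1, 59.71 and 61.89 TPM with sgRNA3, and 45.84 and 47.64 TPM in LACZ. The 3 groups did not overlap, with sgRNA3 highest and sgRNA1 lowest. With sgRNA3 it rose to 130% of LACZ (log2 change 0.37, SE 0.07, limma adjusted p = 0.0363). Its sgRNA1 log2 change was -0.27 (95% interval -0.44 to -0.09, limma adjusted p = 0.0885). The difference, sgRNA3 against sgRNA1, was 0.64 (SE 0.07, limma adjusted p = 0.0393), and the adjusted p was 0.0899 to 0.178 with any of the 6 libraries left out, 0.0776 without the low-value filter, 0.161 without the variance trend and 0.131 when the LACZ libraries were not in the fit. The call against LACZ with sgRNA3 was lost without sgRNA3 replicate 1 or 2 or LACZ replicate 1 or 2 (limma adjusted p = 0.125, 0.148, 0.148 and 0.120), without the variance trend (0.0822) and without the low-value filter (0.0598).

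IFIH1 (ENSG00000115267, chromosome 2, 162267079 to 162318703), which encodes MDA5, the sensor of long double-stranded RNA, had the largest rise of the 9 genes with sgRNA3. It was at 15.07 and 15.7 TPM with sgRNA1, 21.72 and 23.67 TPM with sgRNA3, and 14.14 and 14.27 TPM in LACZ. Both sgRNA3 libraries lay above the other 4. The mean with sgRNA3 was 160% of LACZ (log2 change 0.64, SE 0.09, limma adjusted p = 0.0186), and for sgRNA1 the log2 change was 0.11 (95% interval -0.11 to 0.33, limma adjusted p = 0.509). The difference between the guides was 0.53 and did not pass (95% interval 0.31 to 0.75, limma adjusted p = 0.0959). The call with sgRNA3 was lost without sgRNA3 replicate 1 or 2 or LACZ replicate 1 or 2 (limma adjusted p = 0.0741, 0.0979, 0.0913 and 0.0931).

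DDX58 (ENSG00000107201, chromosome 9, 32455705 to 32526324), which encodes RIG-I, the sensor of short RNA with a triphosphate end, was at 20.48 and 21.87 TPM with sgRNA1, 27.16 and 28.42 TPM with sgRNA3, and 26.27 and 25.39 TPM in LACZ. Its sgRNA1 libraries lay below LACZ and its sgRNA3 libraries above it, but neither comparison passed (log2 change -0.28 with sgRNA1, limma adjusted p = 0.103, and 0.10 with sgRNA3, limma adjusted p = 0.444). DHX58 (ENSG00000108771, chromosome 17, 42101404 to 42112733), which encodes LGP2, was at 17.48 and 18.0 TPM with sgRNA1, 24.42 and 23.09 TPM with sgRNA3, and 20.02 and 18.33 TPM in LACZ. Its order of groups was that of DDX58, with log2 changes of -0.11 (0.02 under quantile normalization) with sgRNA1 and 0.30 with sgRNA3 (limma adjusted p = 0.509 and 0.0959). Between the guides the log2 differences were 0.38 for DDX58 (95% interval 0.18 to 0.57, limma adjusted p = 0.131) and 0.40 for DHX58 (95% interval 0.18 to 0.62, limma adjusted p = 0.144). These intervals are of single genes and are not adjusted for the number of genes tested.

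**Figure D2:**
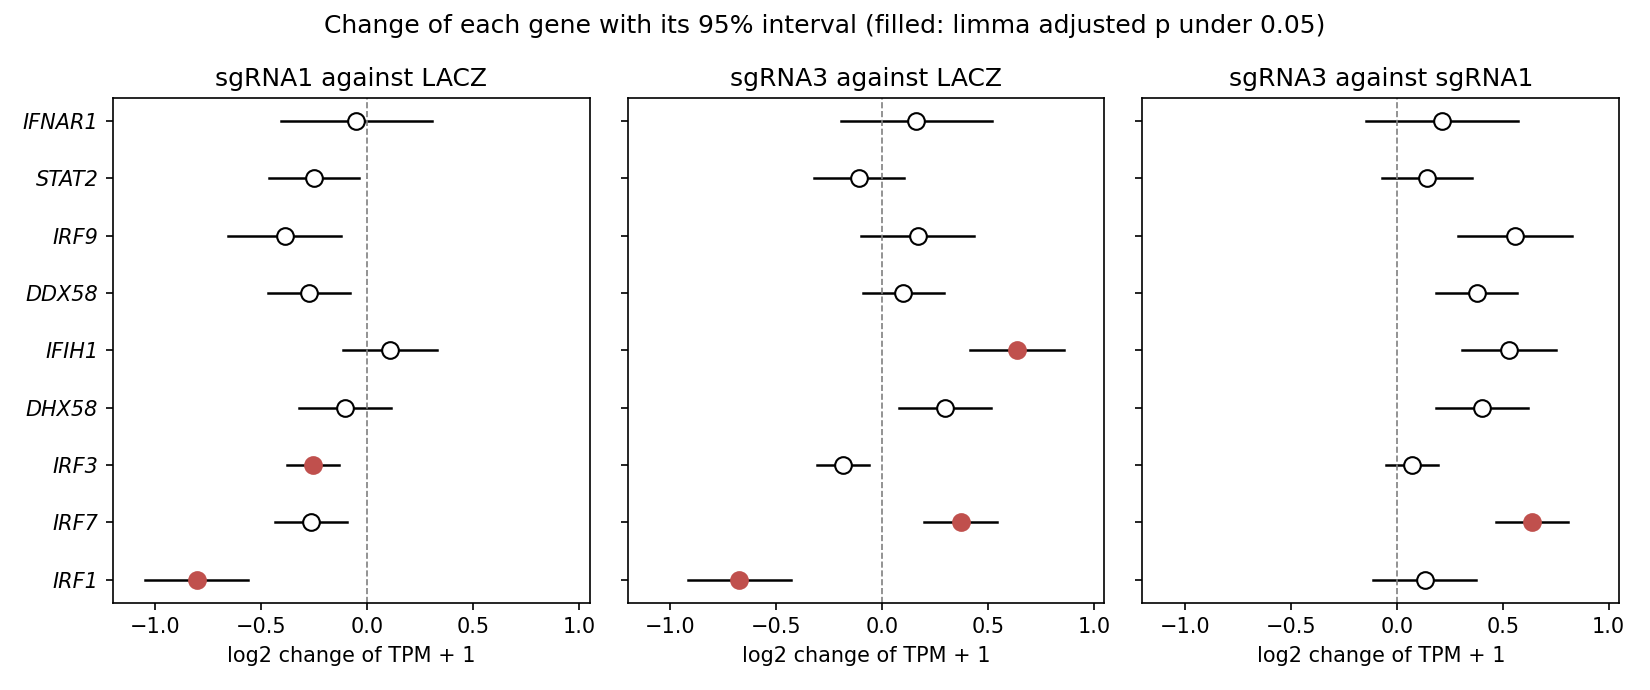
Log2 change of TPM + 1 (horizontal axis) of each of the 9 genes in the 3 comparisons (panels), with the 95% interval of the limma fit as a line and filled points where the limma adjusted p was under 0.05. IRF1 lay left of 0 with each guide (-0.81 and -0.67), and in sgRNA3 against sgRNA1 all 9 points lay right of 0, with IRF7 at 0.64 the one that passed.

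IRF9 (ENSG00000213928, chromosome 14, 24161053 to 24166565), the DNA-binding subunit of ISGF3, was at 149.98 and 121.05 TPM with sgRNA1, 205.75 and 192.17 TPM with sgRNA3, and 174.0 and 179.64 TPM in LACZ. The groups did not overlap, though the sgRNA1 libraries were far apart. No comparison passed, with a log2 change in the sgRNA1 libraries of -0.39 (SE 0.11, limma adjusted p = 0.0990), in the sgRNA3 libraries of 0.17 (limma adjusted p = 0.363), and 0.56 between the guides (95% interval 0.29 to 0.82, limma adjusted p = 0.122). Without sgRNA1 replicate 1 the first of these passed (-0.54, limma adjusted p = 0.0487), and over the 6 libraries left out it was 0.0487 to 0.273. On the same strand, AL136295.5 shares 1838 of the 3794 exonic bases of IRF9 and was between 8.33 and 15.67 TPM in the 6 libraries. The deposited length of IRF9 is also 1838 bases, so the overlap may cover all of it, which was not tested. The sources used here do not say how reads were split between the 2 genes.

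STAT2 (ENSG00000170581, chromosome 12, 56341597 to 56360155), a subunit of ISGF3, was at 28.25 and 25.69 TPM with sgRNA1, 29.09 and 30.63 TPM with sgRNA3, and 33.54 and 31.08 TPM in LACZ. Both guides lay below LACZ, and neither comparison passed (log2 changes -0.25 and -0.11, limma adjusted p = 0.146 and 0.454). IFNAR1 (ENSG00000142166, chromosome 21, 33324477 to 33359862), a chain of the type I interferon receptor, was at 41.02 and 32.04 TPM with sgRNA1, 43.43 and 41.03 TPM with sgRNA3, and 40.83 and 34.62 TPM in LACZ. On the log2 scale its sgRNA1 replicates were the farthest apart of any of the 9 genes, and the sgRNA1 and LACZ libraries overlapped. Its log2 changes were -0.05 with sgRNA1 (95% interval -0.41 to 0.31, but 0.03 after median-of-ratios scaling and 0.02 after quantile normalization) and 0.16 with sgRNA3 (95% interval -0.19 to 0.52), with limma adjusted p = 0.864 and 0.510.

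The libraries also separated by guide beyond the calls. In sgRNA3 against sgRNA1, both sgRNA3 libraries were above both sgRNA1 libraries in 8 of the 9 genes, all but IRF1, where 28.2% of all tested genes were. For IFNAR1 that gap was 41.03 against 41.02 TPM. Both sgRNA1 libraries were below LACZ in 7 of 9 genes and above it in 1, where 35.2% and 19.8% of all tested genes were. For DHX58 that gap was 18.0 against 18.33 TPM, and its log2 change was -0.03 under median-of-ratios scaling and 0.02 under quantile normalization. Both sgRNA3 libraries were above LACZ in 6 of 9 genes and below it in 3, where 24.8% and 34.3% were. The gap was 41.03 against 40.83 TPM for IFNAR1 and 30.63 against 31.08 TPM for STAT2. All these counts and shares are on TPM without further scaling.

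Ratios of 2 genes within a library do not change when all its values are multiplied by 1 factor, but quantile normalization can change them. The pairs were chosen after the values were seen and were not tested. The IRF1 to IRF3 ratio was 0.968 and 0.858 with sgRNA1, 0.871 and 1.04 with sgRNA3, and 1.38 and 1.29 in LACZ. The IFIH1 to DDX58 ratio was 0.736 and 0.718 with sgRNA1, 0.800 and 0.833 with sgRNA3, and 0.538 and 0.562 in LACZ. In both pairs the 4 SULF2 libraries stood on 1 side of the LACZ libraries, so IFIH1 was higher relative to DDX58 with sgRNA1 also, where neither gene passed on its own. The IRF7 to IRF3 ratio was 0.526 and 0.477 with sgRNA1, 0.730 and 0.766 with sgRNA3, and 0.507 and 0.504 in LACZ. Here sgRNA3 stood apart from the other 2 groups, which overlapped. The IRF9 to STAT2 ratio, of 2 subunits of ISGF3, was 5.31 and 4.71 with sgRNA1, 7.07 and 6.27 with sgRNA3, and 5.19 and 5.78 in LACZ, with the same grouping. The DHX58 to DDX58 ratio was 0.854 and 0.823 with sgRNA1, 0.899 and 0.812 with sgRNA3, and 0.762 and 0.722 in LACZ, and the guides overlapped each other above LACZ.

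**Figure D3:**
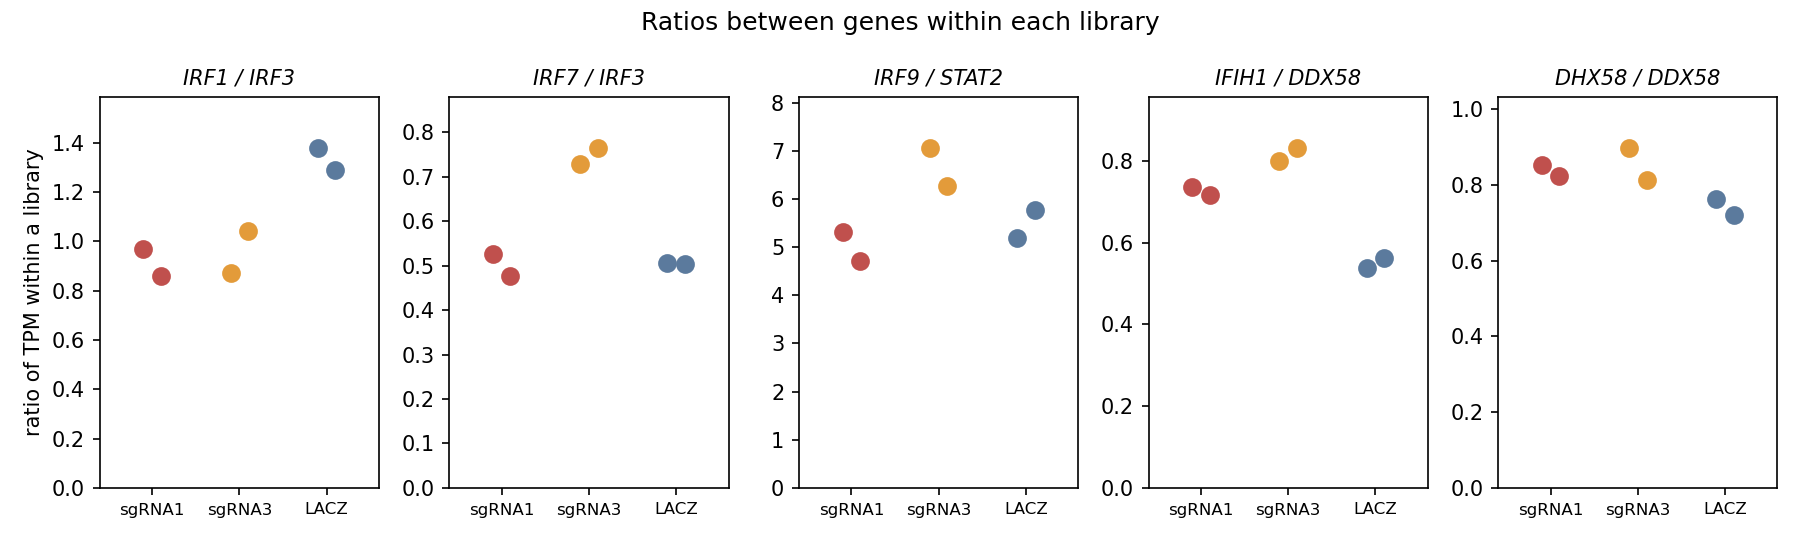
Ratio of the TPM of 2 genes within each library (vertical axes, from 0) for 5 pairs, with the libraries of SULF2 sgRNA1, SULF2 sgRNA3 and LACZ as points. IRF1 to IRF3 lay at 0.858 to 1.04 in the 4 SULF2 libraries, below 1.29 and 1.38 in LACZ, and IFIH1 to DDX58 at 0.718 to 0.833, above 0.538 and 0.562.

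For the 4 members whose log2 values spanned at least 0.5 over the 6 libraries, the genes with the nearest profile were found by the root mean square difference of centred log2(TPM + 1) values, as a description over libraries that share their groups. IRF1 was nearest to NRIP1, a nuclear receptor corepressor (0.05, Pearson r = 0.990), and UBAP1 (0.06, r = 0.992). NRIP1 was at 39.31 and 35.4 TPM with sgRNA1, 38.27 and 40.75 TPM with sgRNA3, and 64.78 and 65.93 TPM in LACZ. IRF7 was nearest to ANKRD50 (0.02, r = 0.998) and CCBE1 (0.04, r = 0.993). IRF9 was nearest to RELB, an NF-kB subunit (0.05, r = 0.984), and AVPI1 (0.06, r = 0.971). IFIH1 was nearest to the interferon-induced gene IFI44 (0.04, r = 0.989) and to the mitochondrial carrier SLC25A22 (0.04, r = 0.993).

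The ligands of the pathway were hardly present. Of 21 interferon genes, 13 were listed at 0 in all 6 libraries and 1 passed the low-value filter, IFNE, a type I interferon of epithelia. IFNE was at 2.83 and 2.85 TPM with sgRNA1, 1.62 and 2.16 TPM with sgRNA3, and 2.74 and 3.22 TPM in LACZ, and it did not pass in any comparison (limma adjusted p = 0.906 and 0.200 against LACZ and 0.397 between the guides). IFNB1, the interferon that IRF3 and IRF7 induce first, was listed at 0 in both sgRNA1 libraries, at 0.22 and 0.11 TPM with sgRNA3, and at 0 and 0.33 TPM in LACZ. IFNL1, a type III interferon, was listed at 0 in both sgRNA1 libraries, at 0 and 0.38 TPM with sgRNA3, and at 0.13 and 0.25 TPM in LACZ. IFNA1 was between 0 and 0.51 TPM, IFNA13, a near-identical copy of it, between 0 and 0.73 TPM, IFNL2 and IFNL3 were above 0 in 1 LACZ library (0.28 and 0.17 TPM), and IFNW1 did not exceed 0.04 TPM.

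Of the 9 other receptor and JAK-STAT genes reported here, 0 passed limma with sgRNA1 and 0 with sgRNA3 (2 at an unadjusted p under 0.05 with each, a share close to the 24.6% and 28% of all tested genes), and their median log2 changes were -0.11 and -0.08, beside -0.07 and -0.05 over all tested genes. The shares of all tested genes that rose or fell by limma apply to each list that follows: 1.69% rose and 4.31% fell with sgRNA1, and 3.84% rose and 5.25% fell with sgRNA3. IFNAR2, the other chain of the type I receptor, was at 18.33 and 17.19 TPM with sgRNA1, 11.83 and 13.01 TPM with sgRNA3, and 12.45 and 12.22 TPM in LACZ, and did not pass with sgRNA1 (log2 change 0.49, limma adjusted p = 0.0520). Of 7 tested brakes on JAK-STAT signalling, 1 fell with sgRNA1, and 1 rose and 1 fell with sgRNA3, and in a list of this size a single call is not read as a result about the list. SOCS3, a feedback inhibitor of JAK kinases, was at 31.22 and 31.6 TPM with sgRNA1, 39.3 and 35.74 TPM with sgRNA3, and 57.65 and 56.82 TPM in LACZ (log2 changes -0.85 and -0.60, limma adjusted p = 0.00564 and 0.0129, and 0.0157 to 0.0572 and 0.0347 to 0.0785 with a library left out, lost without LACZ replicate 1 in each and without sgRNA3 replicate 2 or LACZ replicate 2 with sgRNA3). USP18, which blocks IFNAR2, was at 25.8 and 27.88 TPM with sgRNA1, 47.15 and 45.5 TPM with sgRNA3, and 24.13 and 26.92 TPM in LACZ (log2 change with sgRNA3 0.84, limma adjusted p = 0.00969, and 0.0267 to 0.0626 with a library left out, lost without either sgRNA3 library or LACZ replicate 1).

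Of 13 adaptors and kinases that relay RNA sensing, 2 fell with sgRNA1, the TBK1 scaffolds AZI2 (log2 change -0.75, limma adjusted p = 0.0186, lost without any sgRNA1 or LACZ library) and TANK (-0.63, limma adjusted p = 0.0260, lost without any library, 0.0585 to 0.115), and with sgRNA3 3 rose and 1 fell, where 4.31% of all tested genes fell with sgRNA1 and 3.84% rose and 5.25% fell with sgRNA3. Those that rose with sgRNA3 were TRIM25, a ubiquitin ligase for RIG-I (log2 change 0.82, limma adjusted p = 0.0258), EIF2AK2, the RNA-activated kinase PKR (0.66, limma adjusted p = 0.0281), and ZNFX1 (0.41, limma adjusted p = 0.0470, with no alternative run), and TANK fell (-0.46, limma adjusted p = 0.0438). With a library left out the adjusted p was 0.0417 to 0.115 for TRIM25, lost without any sgRNA3 or LACZ library, 0.0365 to 0.122 for EIF2AK2, held only without LACZ replicate 1, and 0.0673 to 0.165 for TANK, lost without any of the 6. MAVS itself was at 26.85 and 33.76 TPM with sgRNA1, 26.3 and 26.83 TPM with sgRNA3, and 40.54 and 29.32 TPM in LACZ and did not pass (limma adjusted p = 0.574 and 0.263). Of 11 brakes on RNA sensing, 1 fell with each guide (4.31% and 5.25% of all tested genes), TNFAIP3, the NF-kB-induced ubiquitin editor A20. TNFAIP3 was at 56.29 and 49.64 TPM with sgRNA1, 70.97 and 68.87 TPM with sgRNA3, and 121.88 and 132.16 TPM in LACZ (log2 changes -1.25 and -0.85, limma adjusted p = 0.00268 and 0.00801). No single library decided the sgRNA1 call for TNFAIP3 (at most 0.0284), whereas that with sgRNA3 was lost without sgRNA3 replicate 2 or LACZ replicate 2 (adjusted p at most 0.0560). Of 7 tested DNA sensing genes, 0 passed limma with sgRNA1 (4 at an unadjusted p under 0.05, where 24.6% of all tested genes were) and 1 rose with sgRNA3, where 3.84% of all did, SAMHD1, a nucleotide hydrolase (log2 change 0.72, limma adjusted p = 0.00975, and 0.0295 to 0.0628 with a library left out, lost without either sgRNA3 library or LACZ replicate 2). A further list of 6 tested genes held other IRFs and the IRF2-binding proteins IRF2BP2 and IRF2BPL, which are not IRFs themselves. Of these 6, 0 passed limma with sgRNA1 (2 at an unadjusted p under 0.05, beside the same 24.6%). With sgRNA3 1 fell, IRF2BPL, where 5.25% of all did (log2 change -0.50, limma adjusted p = 0.0445). With a library left out its log2 change was -0.53 to -0.47, and the call was lost each time.

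Downstream, of 38 targets of type I interferon, 5 rose and 0 fell with sgRNA1, and 26 rose and 0 fell with sgRNA3, where 1.69% and 3.84% of all tested genes rose. Their median log2 change was 0.15 with sgRNA1 and 0.59 with sgRNA3, beside -0.07 and -0.05 over all tested genes. Between the guides 8 were higher with sgRNA3 and 0 lower, where 0.391% of all genes were higher. This list, like the other pathway lists, was chosen with earlier results of these data known, so its counts are not independent support. Under quantile normalization 4 of the 38 targets rose with sgRNA1 and 26 with sgRNA3. MX1, a GTPase that traps viruses, was at 163.59 and 158.1 TPM with sgRNA1, 292.72 and 313.0 TPM with sgRNA3, and 143.1 and 130.08 TPM in LACZ. ISG15, the ubiquitin-like modifier, was at 686.65 and 719.28 TPM with sgRNA1, 1133.79 and 1165.41 TPM with sgRNA3, and 616.8 and 623.36 TPM in LACZ. With sgRNA3 the log2 changes were 1.14 for MX1 and 0.89 for ISG15 (limma adjusted p = 0.00197 and 0.00116), and they held with each library left out. The number that rose was 11 to 22 of 38 with sgRNA3 with a library left out, with 11 and 12 without sgRNA3 replicate 1 and 2 and 12 and 13 without LACZ replicate 1 and 2. With sgRNA1 it was 0 to 3 with a library left out (1 and 0 without sgRNA1 replicate 1 and 2, 3 without either sgRNA3 library and 0 without either LACZ library) and 11 under median-of-ratios scaling.

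Of 21 tested targets of IRF1 and interferon gamma, 2 rose and 1 fell with sgRNA1, and 10 rose and 2 fell with sgRNA3, while IRF1 itself fell with each. Of all tested genes 1.69% rose and 4.31% fell with sgRNA1, and 3.84% rose and 5.25% fell with sgRNA3. The median log2 changes of these targets were 0.14 and 0.30, beside -0.07 and -0.05 over all tested genes. Whether changes of these targets depend on IRF1 or on interferon was not tested. TAP1, which carries peptides to MHC class I, was at 61.13 and 61.91 TPM with sgRNA1, 79.82 and 82.09 TPM with sgRNA3, and 59.98 and 59.25 TPM in LACZ (log2 change with sgRNA3 0.44, limma adjusted p = 0.0123, lost without any sgRNA3 or LACZ library, at most 0.0786). CD274, the checkpoint ligand PD-L1, was at 22.7 and 19.89 TPM with sgRNA1, 28.93 and 24.26 TPM with sgRNA3, and 58.78 and 55.51 TPM in LACZ. It fell with each guide, as IRF1 did (log2 changes -1.39 and -1.08, limma adjusted p = 0.00564 and 0.0103), though not without LACZ replicate 1 (0.0572 and 0.0697) or, with sgRNA3, LACZ replicate 2 (0.0651).

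**Figure D4:**
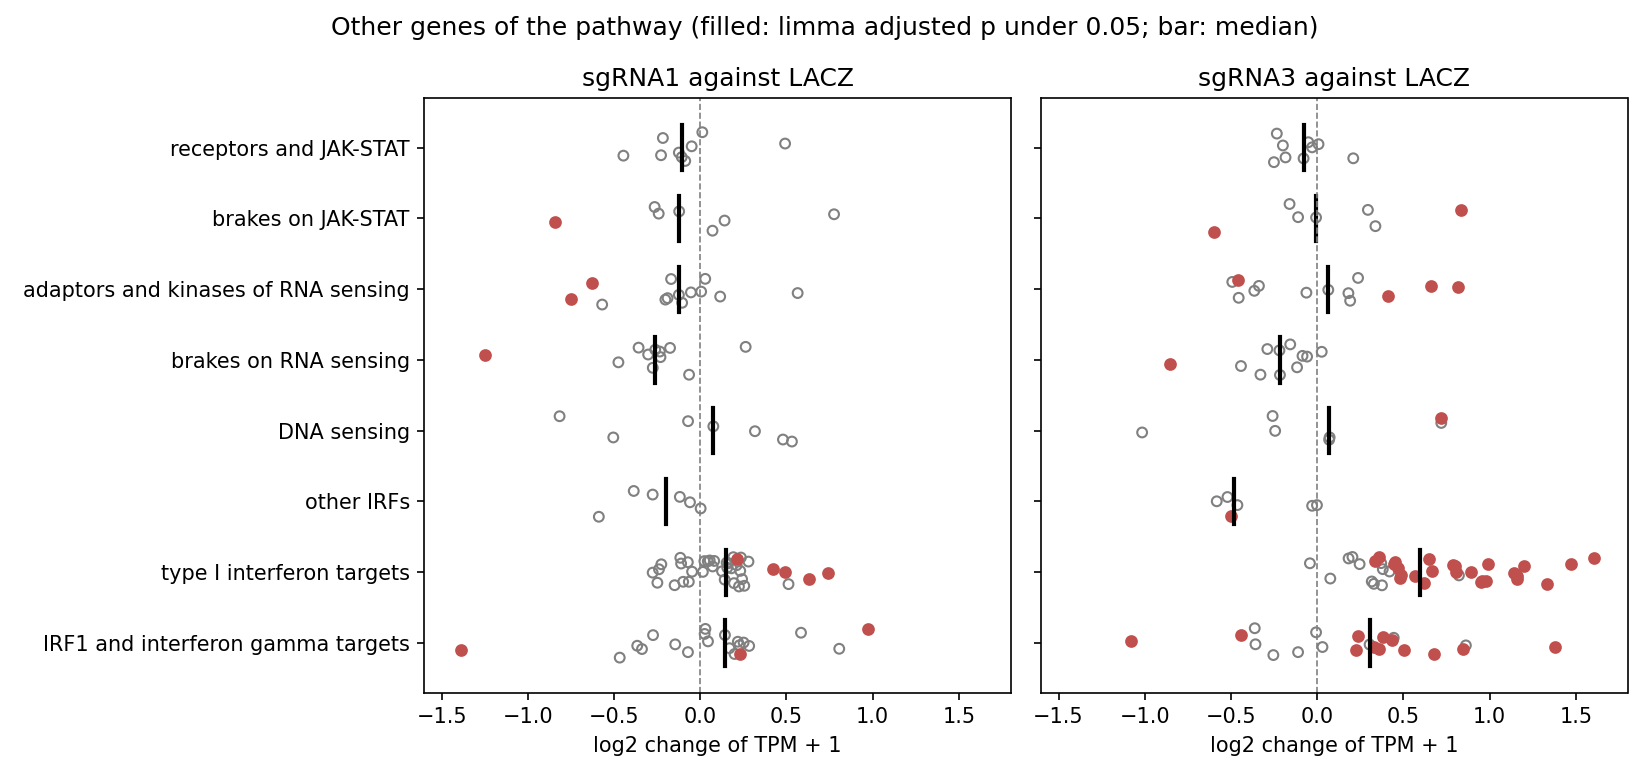
Log2 change of TPM + 1 (horizontal axis) of the tested genes of 8 lists of the interferon pathway (rows) with sgRNA1 and sgRNA3 against LACZ, filled where the limma adjusted p was under 0.05, with the list median as a bar. Type I interferon targets lay furthest right with sgRNA3 (median 0.59, 26 of 38 passing), and with sgRNA1 5 of 38 passed. The lists were chosen with earlier results of these data known.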

How the data were processed

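The authors deposited a single matrix of TPM values with 2 decimals. Per the submitters' processing notes, the tools were RSEM 1.3.1, HISAT2 2.1.0 and DESeq2 1.24.0, with the build GRCh38, and their roles are not stated. The column names carry H1 or H3 where the sample titles carry S1 or S3, and were paired by guide and replicate number, and 0 columns of library values were left without a sample. Values of overlapping genes depend on how reads were split between them. TPM keeps no depth, so no counting interval is given, and values are relative to each library's total.

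From these, only genes that reached a TPM of 1 in 2 or more libraries were kept, log2(TPM + 1) was taken, and all 3 groups were fitted in limma 3.58.1 (R 4.3.3) with a variance trend (3 residual degrees of freedom, 2.34 from the prior). Log2 changes understate those of low genes. DESeq2 was not run, since TPM are not counts. The fit was also run on simulated data, with independent noise and added changes larger than those of any of the 9 members. That run therefore does not measure how reliable the calls of the members are. The 9 members and the pathway lists were chosen with earlier results of these data known. Named were the members, SULF2, genes of each list with the smallest p or passing the test, interferons above 0, and nearest profiles among genes with a mean TPM of at least 5. MAVS was named after its values were seen. An item of the receptor and JAK-STAT list is not reported here and is left out of that list's counts. Gene coordinates and overlaps are from GENCODE 29. Across 6 libraries, mitochondrial transcripts took 10.3% to 11.2% of the total and 15563 to 15923 genes reached 1 TPM. Alternatives were other pseudocounts (0.1 and 5), filters (none, or a TPM of at least 5) and scalings, no variance trend, only the groups compared, a replicate block and leaving out each library.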

Additional observations from a re-analysis of the deposited data

Results flagged for a closer look

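The response to the 2 guides differed, by the test of sgRNA3 against sgRNA1, for 1 of the 9 members and for 6 of 33 other genes named from the pathway lists. Of all tested genes 0.391% were higher and 0.187% lower with sgRNA3 than with sgRNA1. The 33 genes were taken for the smallest p against LACZ in each list, so their count partly reflects that choice and is no measure of the lists. IRF7 was higher with sgRNA3 than with sgRNA1 by 0.64 on the log2 scale. So were USP18 by 0.77, ISG15 by 0.71, IFI6 by 0.74, IFIT1 by 0.84 and MX1 by 0.91. The guanylate-binding protein GBP2 ran the other way, with a log2 change of -0.47 for sgRNA3 against sgRNA1, at 76.63 and 76.17 TPM with sgRNA1, 55.5 and 54.34 TPM with sgRNA3, and 75.21 and 74.45 TPM in LACZ. The limma adjusted p of these 7 differences was 0.0158 to 0.0420. With 1 library left out it was 0.0386 to 0.179, and the only call that remained was ISG15 without sgRNA3 replicate 1. The SULF2 level itself did not pass between the guides (log2 change -0.14, 95% interval -0.59 to 0.31, limma adjusted p = 0.754). No cause of the difference was tested.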

How the results depend on the processing

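Of 405 values of the 9 members under the alternatives, 360 kept their side of the threshold, 44 lost the call, 1 gained it (IRF9 without sgRNA1 replicate 1), and no called value changed sign. Most of the 405 values had not passed in the main fit, so they could not lose a call. The 360 is therefore no measure of how stable the calls were. Members called in the main fit numbered 2 with sgRNA1, 3 with sgRNA3 and 1 between the guides, of 9 in each comparison. With sgRNA1 they numbered 1 without the low-value filter, 1 under median-of-ratios scaling, 1 under quantile normalization, 0 without the variance trend (6 at an unadjusted limma p under 0.05), 1 with only the groups compared and 0 with the replicate block (6 unadjusted). With sgRNA3 they numbered 1 without the trend and 1 with the block, and between the guides 0 under each of 4 settings, the unfiltered fit, the fit with no trend, the fit of only the groups compared and the block (5 at an unadjusted limma p under 0.05 in each). Under the replicate block the limma adjusted p was 0.0509 and 0.0581 for IRF1, 0.0990 for IRF3 with sgRNA1, 0.0801 and 0.131 for IRF7, 0.0481 for IFIH1 with sgRNA3, and 0.0819 and 0.0583 for SULF2, whose calls were thus lost. With a library left out they numbered 0 to 1, 0 to 3 and 0 to 0. All genes called numbered 997, 1509 and 96. They numbered 542, 785 and 0 in the unfiltered fit, 295, 557 and 12 in the fit with no trend, 311, 833 and 2 with only the groups compared, and 377, 561 and 0 with the replicate block. The 0 genes called without the filter and with the block compare with 3070 and 2285 at an unadjusted limma p under 0.05. With a library left out they numbered 163 to 464, 242 to 967 and 0 to 29. Type I interferon targets that rose, an alternative added after seeing the data, numbered 11 with sgRNA1 under median-of-ratios scaling, and 0 to 3 with sgRNA1 and 11 to 22 with sgRNA3 with a library left out. Under quantile normalization 4 of these targets rose with sgRNA1 and 26 with sgRNA3. A group left with 1 library was assumed to vary like the others. Deviations of equally numbered libraries correlated across genes at -0.031, -0.018 and 0.0061, so no shift shared by equal numbers was seen. Whether equally numbered libraries were prepared together is not stated in the sources used here, and these correlations cannot decide it. The cause of each lost call was not tested, and depth is unknown.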
